A study of Mus musculus with 17 samples.

Results

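Transcripts of voltage-gated calcium channels and of the protein that gabapentin binds were followed through 10 genes, taken by symbol from the 78298 gene identifiers of the count tables: 6 α1 pores (Cacna1a, Cacna1b, Cacna1c, Cacna1d, Cacna1e and Cacna1h), 3 α2δ genes (Cacna2d1, Cacna2d2 and Cacna2d3) and the β gene Cacnb4. The rule names them by symbol and sets no threshold on a measured value, but they were proposed with earlier results of these data known. All 10 passed the filter on low counts that left 23972 genes to test. Voltage-gated calcium channels open when a neuron's membrane depolarizes and let calcium in, which drives transmitter release, shapes firing and reaches the nucleus as a signal. Each high-voltage-activated channel is built from a pore-forming α1 subunit, an α2δ subunit that raises the number of channels at the membrane, and a cytoplasmic β subunit that helps the pore to reach it, whereas the low-voltage-activated T-type pores can work without these partners. Gabapentin and pregabalin, used against neuropathic pain, bind the α2δ proteins made from Cacna2d1 and Cacna2d2, and in rodents the α2δ protein of Cacna2d1 is known to increase in sensory neurons after peripheral nerve injury.

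The RNA came from mouse lumbar dorsal root ganglia (L4 to L6), which house the cell bodies of the sensory neurons of the leg, with the label day 30 on every sample. The 4 groups were CCI_KO (3 libraries, numbered 2, 3 and 4), CCI_WT (5 libraries), Sham_KO (4 libraries) and Sham_WT (5 libraries). CCI is chronic constriction injury, in which loose ligatures are tied around the sciatic nerve, Sham is the operation without it, KO is the label for loss of Twik1, the potassium channel encoded by Kcnk1, and WT is wild type. The strain, sex and age of the mice, the promoter or cells of the deletion and whether a library held ganglia of 1 animal or of several are not stated by the labels.

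Libraries held 55.8 to 70.4 M gene counts in CCI_KO, 52.5 to 65.7 M in CCI_WT, 52.8 to 59.4 M in Sham_KO and 54.5 to 73.6 M in Sham_WT (M, mega). Levels are counts per mega counts of the scaled library (CPM), and the 10 genes held between 99 reads (Cacna1d) and 11425 reads (Cacna2d1) in a library. The 14 neuron markers were present in every library, the lowest being Thy1 at 102 CPM, and their summed level was 20819 ± 1063 CPM in CCI_KO (SD, n = 3), 19640 ± 468 CPM in CCI_WT (n = 5), 19274 ± 503 CPM in Sham_KO (n = 4) and 19163 ± 1932 CPM in Sham_WT (n = 5). Kcnk1, the targeted gene, averaged 83.9 ± 5.36 CPM in CCI_KO, 114 ± 6.83 CPM in CCI_WT, 89.8 ± 18.0 CPM in Sham_KO and 127 ± 18.8 CPM in Sham_WT. Reads over the whole gene do not check the deleted part, so KO is used here as a label. Sham_KO libraries 1 and 2 stood apart: the summed level of 16 axon injury genes was 2518 and 2314 CPM in them, against 1195 and 1018 CPM in Sham_KO libraries 3 and 4, 2047 to 3125 CPM in CCI_WT and 942 to 1244 CPM in Sham_WT. Tests of the 10 genes that use Sham_KO are therefore also given without libraries 1 and 2. That choice was made from these data after the injury genes were seen, and it leaves libraries 3 and 4 in Sham_KO. Cacna2d1 was high in the same libraries as the injury genes. Its estimates without libraries 1 and 2 are therefore not independent of the choice. Myelinating Schwann cell markers were lower in KO libraries, with summed levels of 6574 ± 767 CPM in CCI_KO, 12282 ± 1795 CPM in CCI_WT, 5705 ± 876 CPM in Sham_KO and 11827 ± 1692 CPM in Sham_WT. A number in the table names is the same for the whole sham set but takes another value in CCI_KO and another in CCI_WT. What it stands for is not stated. Were it a batch, it could not be told apart from injury, nor from genotype after CCI. It would then also enter the interaction and the mean genotype effect.

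The drug-binding family differs at a stretch that matters for gabapentin. An arginine triplet near the start of the α2δ protein is needed for high-affinity binding of the drug, and the coding stretch around it is shown because it separates the α2δ genes whose products bind gabapentin from the one whose product does not. The lines give 54 bases of the GENCODE M39 reference transcripts on GRCm39, 5′ to 3′ on the coding strand, with the codons of the triplet in capitals. Each stretch crosses an intron, so its genome span is longer than the stretch.
Cacna2d1 (chr5:16469294-16471706, plus strand, exons 8 and 9): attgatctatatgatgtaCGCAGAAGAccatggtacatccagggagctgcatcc
Cacna2d2 (chr9:107389528-107390274, plus strand, exons 8 and 9): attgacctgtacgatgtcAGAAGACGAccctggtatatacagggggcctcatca
Cacna2d3 (chr14:29068967-29069110, minus strand, exons 7 and 8): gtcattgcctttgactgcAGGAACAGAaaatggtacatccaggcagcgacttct
All 3 capital codons stand for arginine in Cacna2d1 and Cacna2d2, and 2 of the 3 do in Cacna2d3, where the middle codon does not. Cacna2d1 and Cacna2d2 were identical at 74.1% of the 54 bases, Cacna2d1 and Cacna2d3 at 57.4%.

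The α1 pores divide by the anchor for the β subunit in the loop after the first repeat of the pore, and this stretch is shown because it marks which of the 6 pores are partners of a β subunit such as the one made from Cacnb4. Capitals mark the codons of the 9 anchor positions that were fixed in the search, in the same transcripts and on the same build.
Cacna1a (chr8:85262754-85263032, plus strand, exons 8 and 9): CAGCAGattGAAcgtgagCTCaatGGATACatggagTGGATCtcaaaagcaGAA
Cacna1b (chr2:24609112-24610004, minus strand, exons 8 and 9): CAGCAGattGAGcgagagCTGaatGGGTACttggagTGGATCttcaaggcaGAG
Cacna1c (chr6:118711867-118711920, minus strand, exon 9): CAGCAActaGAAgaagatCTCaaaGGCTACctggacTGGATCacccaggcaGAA
Cacna1d (chr14:29864557-29864610, minus strand, exon 9): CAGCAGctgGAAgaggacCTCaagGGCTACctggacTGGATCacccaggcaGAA
Cacna1e (chr1:154364583-154369099, minus strand, exons 8 and 9): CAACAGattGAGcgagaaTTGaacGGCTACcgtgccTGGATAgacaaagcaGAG
The anchor was found once in each of these 5 high-voltage-activated pores and in 0 places of the Cacna1h transcript, the T-type pore. The L-type pores Cacna1c and Cacna1d were the closest pair, identical at 90.7% of the 54 bases, and Cacna1a and Cacna1b matched at 83.3%. Cacna1e matched Cacna1b at 74.1%, Cacna1a at 66.7% and the L-type pores at 63.0%.

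Transcript levels in the ganglia spanned a wide range. In Sham_WT, levels per length of exons were 9.71 ± 0.691 CPM per kb for Cacnb4, 6.46 ± 0.996 for Cacna2d3, 3.97 ± 0.194 for Cacna2d1, 3.31 ± 0.228 for Cacna1b, 2.28 ± 0.262 for Cacna1h and 1.65 ± 0.185 for Cacna2d2 (SD, n = 5). Cacna1a followed at 0.895 ± 0.129 CPM per kb, then Cacna1c at 0.746 ± 0.0657, Cacna1e at 0.19 ± 0.0411 and Cacna1d at 0.185 ± 0.0478. Neighbours in this order did not overlap between libraries except Cacna1a with Cacna1c and Cacna1e with Cacna1d. Per length of the longest transcript, Cacna2d3 stood first at 14.6 ± 2.25 CPM per kb, followed by Cacnb4 at 10.8 ± 0.765 and Cacna2d1 at 9.72 ± 0.476, each overlapping the next above it, so the order of these 3 depends on the length used. N-type Cacna1b (ENSMUSG00000004113, chr2:24493899-24653221, minus strand), a main pore of transmitter release from nociceptor terminals and the target of ziconotide, led the pores per exon length, making up 43.6 ± 1.7% of the summed level of the 6 pores in Sham_WT. T-type Cacna1h, which sets the threshold for firing in small and mechanosensitive sensory neurons, made up 29.9 ± 1.9%. Per length of the longest transcript the shares were 33.6% for Cacna1b and 29.8% for Cacna1h, and their levels of 3.37 ± 0.232 and 3.00 ± 0.345 CPM per kb overlapped between libraries, as did those of Cacna2d2 and Cacna1a. Cacnb4 was not the leading β gene: Cacnb3 stood at 74.0 ± 5.35 CPM per kb and Cacnb1 at 10.5 ± 0.895 CPM per kb.

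**Figure D1:**
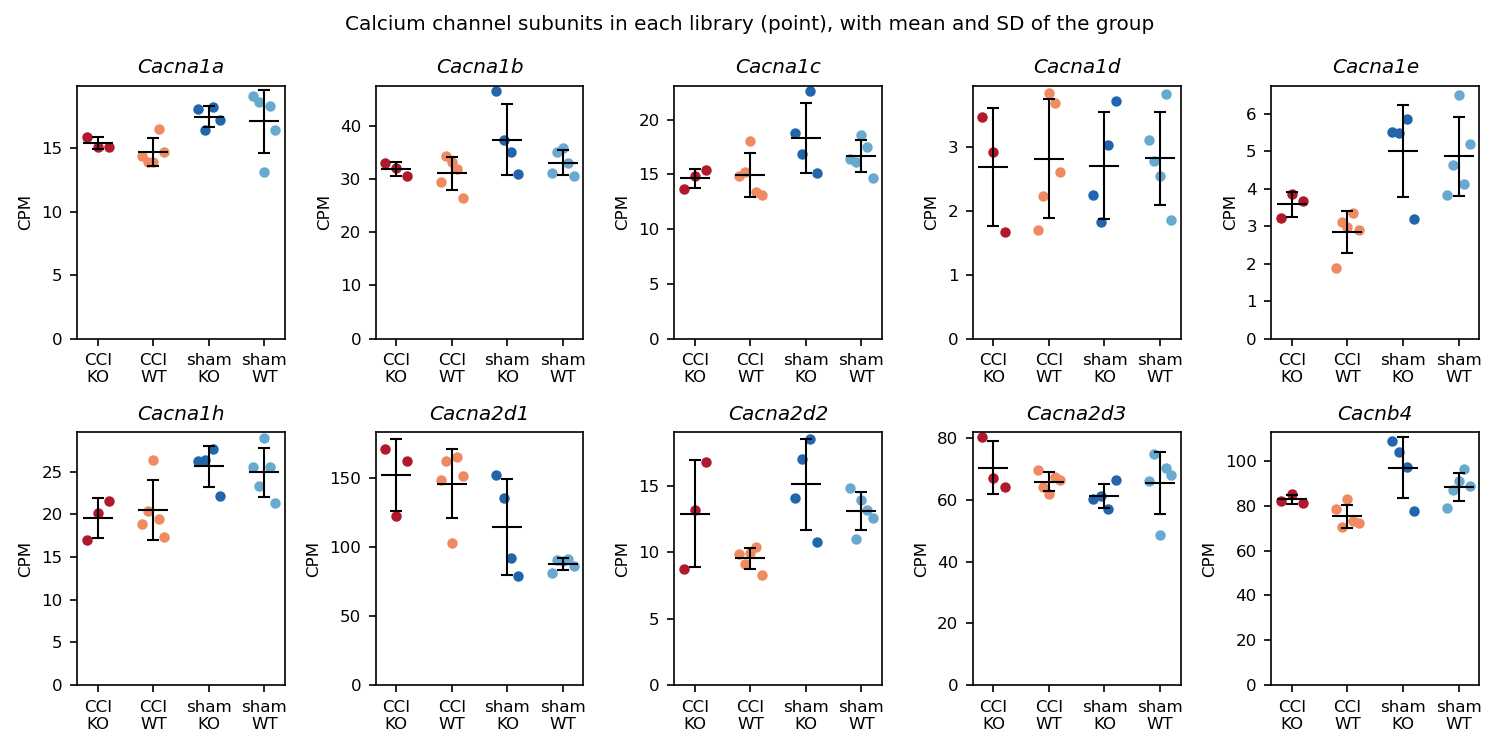
Level (CPM) of each of the 10 calcium channel genes in the 17 libraries, by group, with the mean and SD of the group as a bar. Cacna2d1 sits at 103 to 165 CPM in CCI_WT and at 81.0 to 90.9 CPM in Sham_WT, while the 4 Sham_KO libraries run between 78.6 and 152 CPM.

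Injury in wild-type ganglia moved 2 of the 10 genes in opposite directions: the gabapentin target Cacna2d1 rose and the R-type pore Cacna1e fell. Among all tested genes, 3.06% passed the same threshold (edgeR adjusted p under 0.05), 2.34% as higher and 0.713% as lower. The median log2 fold change was −0.19 over the 10 genes and −0.01 over all tested genes, and 8 of the 10 estimates were negative. An unadjusted p under 0.05 was reached by 6 of the 10 genes and by 13.8% of all tested genes.

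Cacna2d1 (ENSMUSG00000040118, GRCm39 chr5:16139372-16579509, plus strand) held 148, 162, 103, 165 and 151 CPM in CCI_WT libraries 1 to 5, against 81.0, 90.7, 90.0, 90.9 and 85.8 CPM in Sham_WT libraries 1 to 5. Every CCI_WT library was above every Sham_WT library, and CCI_WT library 3 was the lowest of its group. In bulk tissue, a change in the number of cells of a type and a change in RNA per cell cannot be told apart. The fold change was 1.66, with a 95% interval of 1.28 to 2.16, and the log2 fold change was 0.73 ± 0.18 (SE, edgeR adjusted p = 0.0379). The adjusted p lay near the threshold: it ran from 0.00985 to 0.104 with 1 library left out at a time, at log2 fold changes of 0.69 to 0.84. It missed the threshold in 10 of the 17 fits, those without any of the 5 Sham_WT libraries, CCI_WT libraries 1, 2, 4 or 5, or CCI_KO library 4.

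Cacna1e (ENSMUSG00000004110, GRCm39 chr1:154266477-154760247, minus strand), the pore of R-type calcium current, which adds to transmitter release, held 1.89, 3.12, 2.97, 3.35 and 2.91 CPM in CCI_WT libraries 1 to 5, against 3.84, 4.64, 6.51, 4.13 and 5.18 CPM in Sham_WT libraries 1 to 5. The groups did not overlap, which held for 1 higher and 2 lower of the 10 genes and for 4.84% of all tested genes, 3.44% as higher and 1.4% as lower. The log2 fold change was −0.77 ± 0.20 (SE, edgeR adjusted p = 0.0298), a fold of 0.59 with a 95% interval of 0.44 to 0.78. With 1 library left out at a time the adjusted p ran from 0.0135 to 0.0974, and it missed the threshold without CCI_WT library 1, 2 or 5 or Sham_WT library 3 or 5.

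The other 4 high-voltage-activated pores did not pass. P/Q-type Cacna1a (ENSMUSG00000034656, GRCm39 chr8:85065224-85367997, plus strand), a pore of fast transmitter release, averaged 14.7 ± 1.07 CPM in CCI_WT and 17.1 ± 2.47 CPM in Sham_WT (SD, n = 5 each), a log2 fold change of −0.22 ± 0.10 (edgeR adjusted p = 0.3). N-type Cacna1b averaged 31.1 ± 3.13 CPM in CCI_WT and 33.1 ± 2.28 CPM in Sham_WT, and the 95% interval of its fold change was 0.82 to 1.07. Cacna1c (ENSMUSG00000051331, chr6:118564201-119173851, minus strand) and Cacna1d (ENSMUSG00000015968, chr14:29761896-30213412, minus strand) encode L-type pores, which couple activity to gene expression. Cacna1c averaged 15 ± 2.0 CPM in CCI_WT and 16.7 ± 1.47 CPM in Sham_WT (fold 0.77 to 1.05), and the scarce Cacna1d averaged 2.81 ± 0.929 CPM in CCI_WT and 2.82 ± 0.726 CPM in Sham_WT (fold 0.68 to 1.45). For Cacna1d these counts leave room for a change of up to 45.5%.

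T-type Cacna1h (ENSMUSG00000024112, GRCm39 chr17:25593259-25652764, minus strand) held 18.9, 20.4, 26.4, 19.5 and 17.4 CPM in CCI_WT libraries 1 to 5, against 25.5, 23.3, 29.0, 25.6 and 21.3 CPM in Sham_WT libraries 1 to 5. Its groups overlapped through CCI_WT library 3, and the log2 fold change of −0.28 did not pass (edgeR adjusted p = 0.182). Without CCI_WT library 3 it was −0.39, with an edgeR adjusted p of 0.0229.

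The remaining α2δ genes did not pass the threshold. Cacna2d2 (ENSMUSG00000010066, GRCm39 chr9:107276811-107406543, plus strand), whose product also binds gabapentin, held 9.87, 9.14, 9.92, 10.4 and 8.31 CPM in CCI_WT libraries 1 to 5, against 14.8, 11, 13.9, 13.2 and 12.6 CPM in Sham_WT libraries 1 to 5. The groups did not overlap, yet the log2 fold change of −0.46 ± 0.15 did not pass (edgeR adjusted p = 0.107). Cacna2d3 (ENSMUSG00000021991, chr14:28626892-29444600, minus strand), whose loss lowers heat pain sensitivity in flies and mice, averaged 66.0 ± 2.99 CPM in CCI_WT and 65.6 ± 10.1 CPM in Sham_WT, with a 95% interval of the fold change of 0.89 to 1.14. Per exon length, Cacna2d1 made up 45.9 ± 4.25% of the summed level of these 3 genes in CCI_WT and 33.0 ± 3.12% in Sham_WT. Cacna2d2 made up 8.45 ± 1.18% in CCI_WT and 13.8 ± 2.3% in Sham_WT, and Cacna2d3 45.7 ± 3.28% in CCI_WT and 53.2 ± 4.75% in Sham_WT (SD, n = 5 each). The lowest Cacna2d1 share of a CCI_WT library was 38.8% and the highest of a Sham_WT library was 38.4%. Per length of the longest transcript these were 42.4% in CCI_WT and 43.0% in Sham_WT, so the groups then overlapped.

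**Figure D2:**
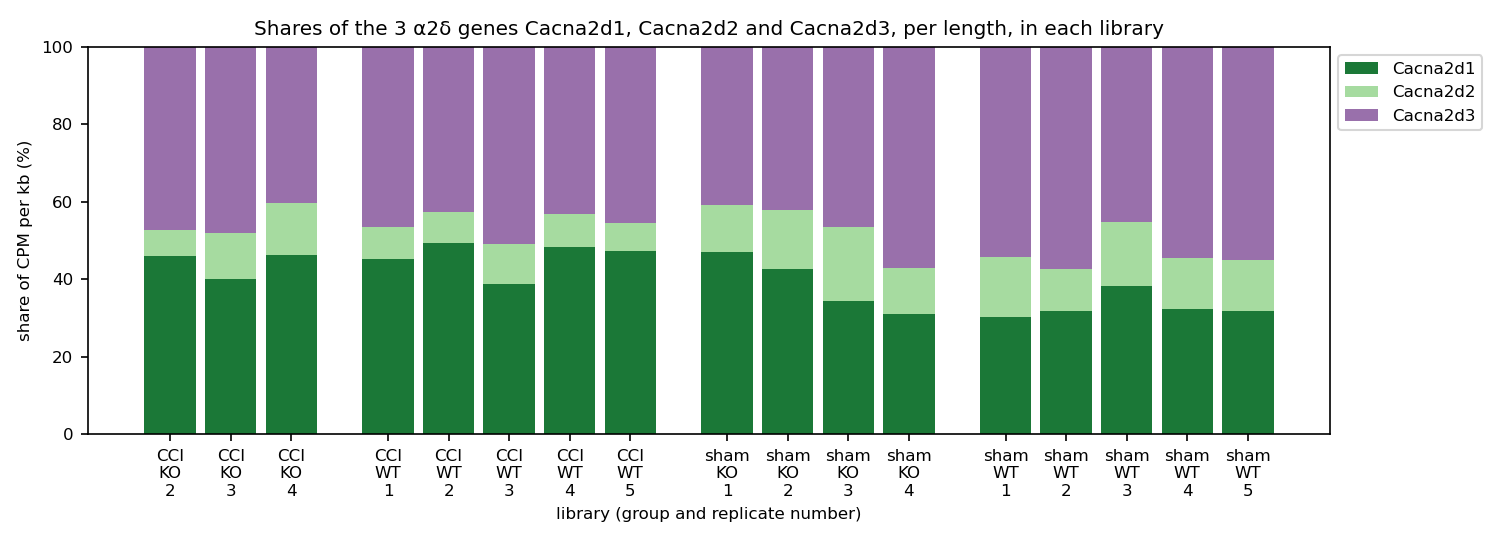
Stacked bars give the share (%) of Cacna2d1, Cacna2d2 and Cacna2d3 in their summed level per exon length, 1 bar per library. Cacna2d1 takes 38.8 to 49.5% in CCI_WT and 30.4 to 38.4% in Sham_WT, and in Sham_KO it reaches up to 47.1%.

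Cacnb4 (ENSMUSG00000017412, GRCm39 chr2:52318337-52566843, minus strand), the β gene, held 78.4, 70.5, 82.8, 73.1 and 72.1 CPM in CCI_WT libraries 1 to 5, against 79.1, 87.1, 90.9, 96.3 and 89.0 CPM in Sham_WT libraries 1 to 5. The log2 fold change was −0.23 ± 0.07 and did not pass (edgeR adjusted p = 0.0902). Without Sham_KO libraries 1 and 2 it passed at the same size (edgeR adjusted p = 0.04). The count of genes past the threshold in wild-type injury was then 3 of 10, beside 3.86% of 25415 tested genes. In that fit Cacna2d1 was at 0.74 ± 0.12 (edgeR adjusted p = 0.00427) and Cacna1e at −0.77 ± 0.20 (edgeR adjusted p = 0.0286). Sham_KO libraries 1 and 2 are in neither group of the wild-type injury comparison. They enter it only through the filter, scaling and spread that all libraries share. Of the exonic bases of Cacnb4, 15.7% also belong to the non-coding gene A430018G15Rik on the other strand, and 10.7% of those of Cacna1d lie in genes on the other strand, chiefly Chdh. Reads of such pairs cannot be told apart without strand. Cacna2d1, Cacna1e, Cacna1b and Cacna1c share 0 exonic bases with other genes.

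In KO-labelled ganglia, 0 of the 10 genes passed the injury threshold with edgeR, and DESeq2 and limma-voom also called 0, with 0.0834% of all tested genes past the edgeR threshold. Without Sham_KO libraries 1 and 2, edgeR again called 0 of the 10, beside 0.578% of 25415 tested genes. With all libraries, an unadjusted p under 0.05 was reached by 4 genes, all lower, against 8.63% of all tested genes. Without Sham_KO libraries 1 and 2 it was reached by 3 genes, Cacna1c and Cacna1h as lower and Cacna2d1 as higher. The share of all genes at that p is not given for the smaller fit. Cacna2d1 held 170.7, 121.9 and 161.9 CPM in CCI_KO libraries 2, 3 and 4, against 151.7, 135.3, 92.1 and 78.6 CPM in Sham_KO libraries 1 to 4. The groups overlapped through Sham_KO libraries 1 and 2, and the log2 fold change was 0.41 ± 0.21 (edgeR adjusted p = 0.633). Without those 2 libraries it was 0.83 ± 0.18 (edgeR adjusted p = 0.0821).

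Cacna1e held 3.22, 3.86 and 3.67 CPM in CCI_KO libraries 2, 3 and 4, against 5.52, 5.49, 5.86 and 3.19 CPM in Sham_KO libraries 1 to 4. Only Sham_KO library 4 lay as low as the CCI_KO libraries. The log2 fold change was −0.49 ± 0.24 (edgeR adjusted p = 0.585), and −0.34 ± 0.29 without Sham_KO libraries 1 and 2 (edgeR adjusted p = 0.78). Unlike Cacna2d1, Cacna1e in Sham_KO libraries 1 and 2 was at the level of the other sham libraries.

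With all libraries, the genes with an unadjusted p under 0.05 were Cacna1h, Cacnb4, Cacna1c and Cacna1b. Cacna1h averaged 19.6 ± 2.35 CPM in CCI_KO (n = 3) and 25.6 ± 2.44 CPM in Sham_KO (n = 4), a log2 fold change of −0.38 ± 0.13 (edgeR adjusted p = 0.348) and −0.34 ± 0.16 without Sham_KO libraries 1 and 2. Its groups and those of Cacna1a, at 15.4 ± 0.449 CPM in CCI_KO and 17.5 ± 0.824 CPM in Sham_KO, did not overlap, as for 7.55% of all tested genes, 3.15% as lower. The log2 fold change of Cacna1a was −0.19 ± 0.12 (edgeR adjusted p = 0.73) and −0.21 ± 0.15 without Sham_KO libraries 1 and 2. Cacnb4 averaged 82.8 ± 2.03 CPM in CCI_KO and 97.1 ± 13.7 CPM in Sham_KO, a log2 fold change of −0.23 ± 0.09 (edgeR adjusted p = 0.428) and −0.08 ± 0.09 without Sham_KO libraries 1 and 2. Cacna1b averaged 31.9 ± 1.22 CPM in CCI_KO and 37.4 ± 6.62 CPM in Sham_KO, where library 1 held 46.5 CPM. Its log2 fold change of −0.23 ± 0.11 (edgeR adjusted p = 0.575) was −0.05 ± 0.11 without Sham_KO libraries 1 and 2. Cacna1c averaged 14.7 ± 0.896 CPM in CCI_KO and 18.4 ± 3.2 CPM in Sham_KO, a log2 fold change of −0.32 ± 0.14 (edgeR adjusted p = 0.481) and −0.36 ± 0.16 without Sham_KO libraries 1 and 2. Its highest library was Sham_KO library 3 at 22.6 CPM, where 8 skeletal muscle markers summed to 1089 CPM, against 8.49 to 21.4 CPM in the other 3 Sham_KO libraries. The part of this RNA in the Cacna1c value was not tested. The log2 fold changes of Cacna2d2 (−0.22 ± 0.18), Cacna2d3 (0.20 ± 0.10) and Cacna1d (−0.01 ± 0.32) did not pass either. Without Sham_KO libraries 1 and 2 they were −0.18 ± 0.22, 0.19 ± 0.14 and −0.33 ± 0.36.

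**Figure D3:**
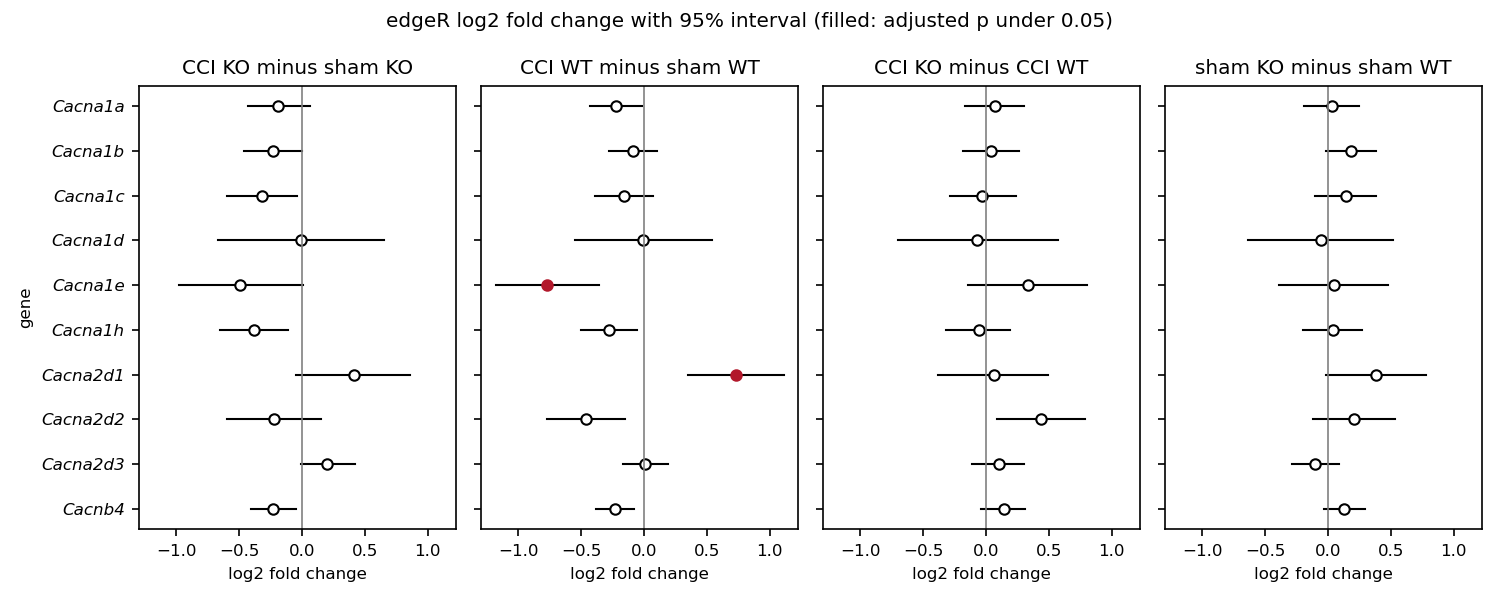
Log2 fold change (horizontal axis) of the 10 genes with the 95% interval as a line, for injury in KO-labelled and in wild-type ganglia and for genotype after CCI and in sham, with filled points past an edgeR adjusted p of 0.05. Cacna2d1 at 0.73 and Cacna1e at −0.77 in wild-type injury are the filled points.

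The test of whether injury acted differently in KO-labelled and wild-type ganglia called 0 of the 10 genes with edgeR, DESeq2 or limma-voom, and the unadjusted p was under 0.05 for 0 of them. With edgeR it called 0 of all 23972 tested genes (0% called) and 5.87% at an unadjusted p under 0.05. The difference of log2 fold changes, KO-labelled minus wild type, was −0.33 ± 0.28 for Cacna2d1 (95% interval −0.92 to 0.26), and 0.09 ± 0.22 without Sham_KO libraries 1 and 2. For Cacna1e it was 0.29 ± 0.31 (95% interval −0.35 to 0.92), and 0.43 ± 0.36 without those libraries. So a call in wild type and none in KO-labelled ganglia do not show that the injury effects differed, and the intervals are too wide to show that they were alike.

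Genotype moved none of the 10 genes past the threshold. In sham ganglia edgeR, DESeq2 and limma-voom called 0 of 10, with 0 at an unadjusted p under 0.05, beside 1.0% of all tested genes called and 11.4% at that unadjusted p. The largest estimate was that of Cacna2d1, at 114 ± 34.7 CPM in Sham_KO (n = 4) and 87.7 ± 4.29 CPM in Sham_WT (n = 5), a log2 fold change of 0.38 ± 0.19 (edgeR adjusted p = 0.464). Without Sham_KO libraries 1 and 2 it was −0.03 ± 0.16. Without them edgeR also called 0 of 10, beside 0.146% of all tested genes, and the 10 log2 fold changes lay between −0.10 and 0.26. With all libraries, the intervals of the fold changes ran from 0.88 to 1.19 for Cacna1a, 0.87 to 1.21 for Cacna1h and 0.82 to 1.07 for Cacna2d3. They were wider for Cacna2d1 (0.99 to 1.72), Cacna2d2 (0.92 to 1.45), Cacna1d (0.64 to 1.43) and Cacna1e (0.77 to 1.39).

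After CCI the 3 tools again called 0 of 10, beside 0.684% of all tested genes with edgeR. Cacna2d2 alone had an unadjusted p under 0.05, beside 8.78% of all tested genes. It held 8.73, 13.2 and 16.8 CPM in CCI_KO libraries 2, 3 and 4, against 9.87, 9.14, 9.92, 10.4 and 8.31 CPM in CCI_WT libraries 1 to 5. The lowest CCI_KO library lay within the CCI_WT range and the other 2 above it, and the log2 fold change was 0.44 ± 0.17 (edgeR adjusted p = 0.384). Cacna2d1 averaged 151 ± 26.0 CPM in CCI_KO and 146 ± 24.8 CPM in CCI_WT, with a 95% interval of the fold change of 0.77 to 1.40. Cacna1e averaged 3.58 ± 0.329 CPM in CCI_KO and 2.85 ± 0.563 CPM in CCI_WT (fold 0.91 to 1.74). Over both treatments the mean genotype effect was past the threshold for 0 of 10 genes with edgeR, DESeq2 and limma-voom, beside 2.55% of all tested genes with edgeR. The smallest p-values belonged to log2 fold changes of 0.32 ± 0.12 for Cacna2d2 (edgeR adjusted p = 0.177) and 0.14 ± 0.06 for Cacnb4 (edgeR adjusted p = 0.279), the 2 genes with an unadjusted p under 0.05, beside 13.3% of all tested genes. Without Sham_KO libraries 1 and 2 they were 0.30 ± 0.13 for Cacna2d2 and 0.06 ± 0.06 for Cacnb4.

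Libraries with much Atf3 held much Cacna2d1, in Sham_KO as well as in the CCI groups, whereas Cacna1e in Sham_KO did not go with Atf3. Atf3, a transcription factor induced in axotomized sensory neurons, held 229, 93.8 and 175 CPM in CCI_KO libraries 2, 3 and 4, and 209, 251, 108, 276 and 256 CPM in CCI_WT libraries 1 to 5. It held 141, 103, 11.1 and 13.2 CPM in Sham_KO libraries 1 to 4, and 9.41 to 16.7 CPM in Sham_WT. The lowest library of each CCI group for Atf3, CCI_KO library 3 and CCI_WT library 3, was also the lowest of its group for Cacna2d1, and the 2 Sham_KO libraries with high Atf3 held the most Cacna2d1 of that group. Sprr1a, a small proline-rich protein of regrowing axons, showed the same libraries, at 96.5 and 45.3 CPM in Sham_KO libraries 1 and 2 and 0.838 and 1.51 CPM in libraries 3 and 4. Over the 17 libraries and 16063 protein-coding genes, the genes whose log2 CPM was most like that of Cacna2d1 were Ktn1, Cttn, Rhoq, Flrt3 and En1, with Pearson's r of 0.96 to 0.97. Those most like Cacna1e were Ppp1r9b, Minar2, Rims3, Rbms1 and Gnl3l, with r of 0.84 to 0.88. These r describe libraries that share groups and scaling, and carry no test.

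**Figure D4:**
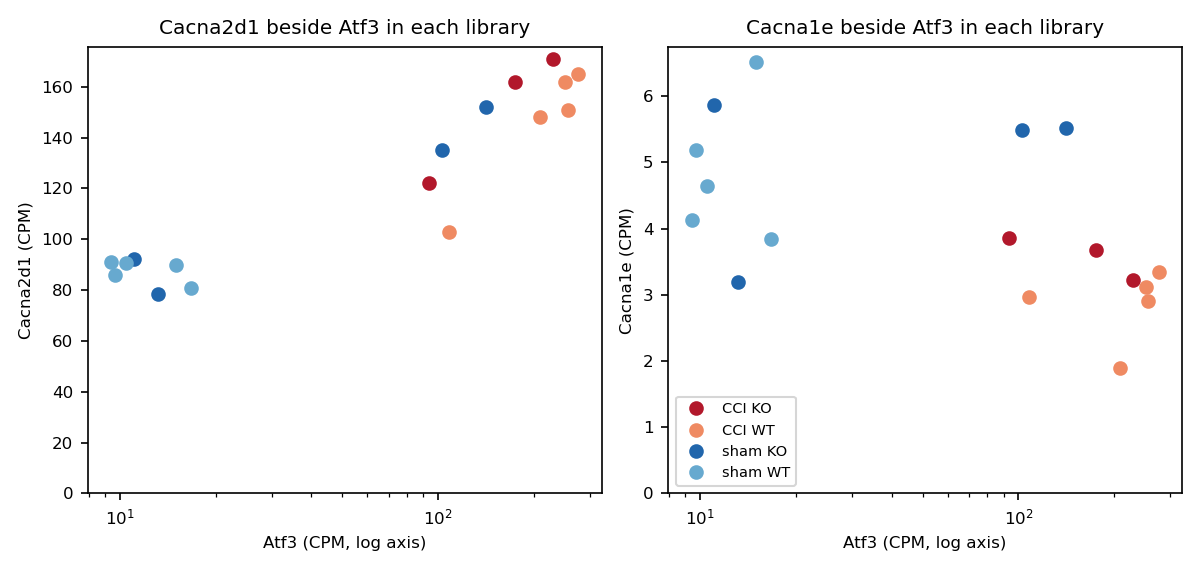
Each point is 1 library, with Atf3 (CPM, log axis) on the horizontal axis and Cacna2d1 (left, CPM) or Cacna1e (right, CPM) on the vertical axis, coloured by group. The Sham_KO libraries with 141 and 103 CPM of Atf3 hold 152 and 135 CPM of Cacna2d1, beside the CCI libraries, but 5.52 and 5.49 CPM of Cacna1e, beside the sham libraries.

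The start regions of Cacna2d1 and Cacna1e are shown because these are the genes that passed in wild-type injury. Of the 10 genes, 8 have an entry in the RefSeq promoter table (build GRCm38.p6, 250 bases before to 50 after the start, gene strand). Both strands were searched for the AP-1 site bound by Jun and Atf3 family factors (TGAGTCA or TGACTCA), the CRE (TGACGTCA) and the GC box (GGGCGG or CCGCCC), and matches are in capitals.
Cacna2d1 (GRCm38.p6 chr5:15934441-15934740, plus strand): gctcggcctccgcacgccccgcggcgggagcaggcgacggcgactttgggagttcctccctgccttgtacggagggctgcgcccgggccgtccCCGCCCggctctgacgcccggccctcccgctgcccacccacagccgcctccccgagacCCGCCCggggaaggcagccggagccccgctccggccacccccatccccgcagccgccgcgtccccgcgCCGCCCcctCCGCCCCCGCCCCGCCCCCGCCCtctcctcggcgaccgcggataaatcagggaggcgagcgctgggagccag
Cacna1e (GRCm38.p6 chr1:154725871-154726170, minus strand): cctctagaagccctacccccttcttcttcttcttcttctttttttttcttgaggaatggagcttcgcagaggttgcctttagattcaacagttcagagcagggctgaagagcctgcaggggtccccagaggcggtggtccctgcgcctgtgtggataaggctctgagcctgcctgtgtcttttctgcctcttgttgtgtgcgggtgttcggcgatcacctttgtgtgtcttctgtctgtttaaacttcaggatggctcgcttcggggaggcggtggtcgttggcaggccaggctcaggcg
The Cacna2d1 window held 7 GC boxes, some overlapping, and the Cacna1e window held 0, where 35.7% of the 32851 promoters in the table hold at least 1. Among genes that did not pass with all libraries, 1 window each of Cacna1c, Cacna1d, Cacna2d3 and Cacnb4 held 6 GC boxes, and other windows of Cacna1c, Cacna1d and Cacnb4 held 0. The window of Cacna1b held 3 and that of Cacna2d2 held 1. The share of G and C bases was 80.0% for Cacna2d1 and 55.3% for Cacna1e. In the Cacna1e window the letters atg, with which a coding stretch can begin, come just after the start. That window may therefore lie before the coding stretch instead of at a transcription start, and the windows of the 2 genes may not be like regions. Neither window held an AP-1 site or a CRE, found in 5.2% and 1.8% of all promoters, which says only that these letters are not in these windows. All 13 windows of the 8 genes lacked both sites, so this does not set Cacna2d1 and Cacna1e apart.

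The rest of the channel family stayed below the threshold after injury. Among 16 other subunit genes edgeR called 0 in wild type, with 1 at an unadjusted p under 0.05 and a median log2 fold change of −0.08. Of all tested genes, 3.06% were called and 13.8% reached that unadjusted p. DESeq2 called 0 of the 12 for which it gave an adjusted p, and limma-voom called 0 of 16. The abundant β gene Cacnb3 averaged 353 CPM in CCI_WT and 373 CPM in Sham_WT, with a log2 fold change of −0.08 ± 0.06 (edgeR adjusted p = 0.665). Cacna1s and Cacng1, the pore and γ subunit of the skeletal muscle channel, stood at 4.46 and 1.45 CPM in Sham_KO library 3, where the muscle markers were high, and at no more than 0.955 and 0.558 CPM in the other 16 libraries.

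Among 27 regulators of the channels, such as the RGK proteins, calmodulins and Rims1, edgeR called 0 in wild-type injury, with 14 at an unadjusted p under 0.05, of which 10 were lower. That unadjusted p was reached by 13.8% of all tested genes. DESeq2 and limma-voom each called 5 of the 27, all lower, among them by both tools Rims1, which organizes transmitter release sites, the RGK protein gene Rem2, Gnao1 and Stac2. Among all genes, DESeq2 called 754 higher and 374 lower of 18807, and limma-voom 832 higher and 364 lower of 23972. Partners of α2δ were called by edgeR in both directions with all libraries, 1 higher and 1 lower of 12 tested. Of all tested genes, 2.34% were called as higher and 0.713% as lower. Without Sham_KO libraries 1 and 2 edgeR called 0 higher and 2 lower of the 12, beside 3.86% of 25415 tested genes. Thbs2, a thrombospondin, the secreted family that binds the α2δ protein of Cacna2d1 in synapse formation, held 28.0, 32.4, 11.6, 39.9 and 34.7 CPM in CCI_WT libraries 1 to 5, against 14.5, 4.92, 12.4, 17.5 and 8.19 CPM in Sham_WT libraries 1 to 5. CCI_WT library 3 again lay lowest of its group and within the sham range, and the log2 fold change was 1.35 ± 0.34 (edgeR adjusted p = 0.0492). Nrxn3, a presynaptic neurexin, averaged 53.5 ± 5.4 CPM in CCI_WT and 68.7 ± 4.74 CPM in Sham_WT, and fell with a log2 fold change of −0.36 ± 0.07 (edgeR adjusted p = 0.0019). It was higher in CCI_KO, at 73.7, 70.3 and 74.5 CPM, against 48.8 to 62.3 CPM in CCI_WT, a log2 fold change of 0.45 ± 0.08 (edgeR adjusted p = 0.00503), and was the partner gene that edgeR and limma-voom called in that comparison, where DESeq2 also called Lrp1 as lower.

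Genes that handle calcium inside the cell gave 3 higher and 1 lower of 25 in wild-type injury. All tested genes gave 2.34% as higher and 0.713% as lower. Itpr1, the inositol trisphosphate receptor that releases calcium from the endoplasmic reticulum, averaged 39.3 ± 10.3 CPM in CCI_WT and 11.3 ± 1.14 CPM in Sham_WT, a log2 fold change of 1.80 ± 0.29 (edgeR adjusted p = 0.00387). Its relative Itpr3 rose by 0.41 ± 0.08 (edgeR adjusted p = 0.00547), and Stim2, a sensor of the calcium store, rose by 0.32 ± 0.09 (edgeR adjusted p = 0.0363). The calcium-binding protein calbindin, Calb1, fell, with a log2 fold change of −0.37 ± 0.07 (edgeR adjusted p = 0.00387), at 81.1 ± 7.3 CPM in CCI_WT and 105 ± 8.31 CPM in Sham_WT. In the KO-labelled injury comparison edgeR called 0 of the 16 subunits, 27 regulators, 12 partners and 25 calcium-handling genes, with 1, 4, 1 and 3 at an unadjusted p under 0.05. Of all tested genes, edgeR called 0.0834% in that comparison, and 8.63% reached that unadjusted p. There limma-voom called 0 in all 4 lists and DESeq2 called Itpr1 alone. Among all genes, DESeq2 called 88 higher and 35 lower of 18343 there. Without Sham_KO libraries 1 and 2, edgeR called 0 of the 16 subunits, 1 higher and 1 lower of the 27 regulators, 0 of the 12 partners and 1 higher of the 25 calcium-handling genes. That fit called 0.578% of 25415 tested genes.

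Markers of other cells moved beside these results in wild type, where 2.34% of all tested genes were called as higher and 0.713% as lower. The 15 tested genes of the axon injury list included 14 that rose, and 6 of 11 macrophage markers rose, with summed levels of 140 ± 34.6 CPM in CCI_WT and 74.0 ± 22.0 CPM in Sham_WT. Of 8 fibroblast markers 2 rose (Postn and Apod), at 2129 ± 541 CPM in CCI_WT and 1617 ± 320 CPM in Sham_WT for the list, and of 7 endothelial markers 1 rose (Cldn5). Of the 14 neuron markers 3 rose (Tubb3, Stmn2 and Thy1) and 0 fell. The part of cell composition in the rise of Cacna2d1 and the fall of Cacna1e was not tested.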

How the data were processed

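Bulk RNA sequencing was done on 17 libraries of mouse lumbar ganglia; the kits, per the labels' protocols, were PicoPure for RNA and SMART-Seq v4 for amplification, which keeps no strand. Per the submitters' processing notes, the authors used bcl2fastq 2.20.0.422, STAR 2.7.11a and the build GRCm39. The authors deposited unnormalized read counts for each Ensembl gene. The counting step's version, strand option and annotation release were not given in the sources used here. Summary lines (reads outside genes, 4.03 to 4.55%, and ambiguous reads, 7.63 to 8.17%) were left out. GENCODE M39 gave symbols for 78168 of 78298 identifiers, and the 10 members matched 1 identifier each.

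Genes past edgeR's filterByExpr (minimum count 10) numbered 23972 of 46200 with any count. TMM-scaled counts of all 17 libraries were fitted with a mean per group (13 residual degrees of freedom) and compared by quasi-likelihood tests in edgeR, adjusted after Benjamini and Hochberg across the tested genes, at 0.05. Log2 CPM used a prior count of 2. Length means the union of annotated exons, or the longest transcript as an alternative. The fit was tested on simulated data. Alternatives were DESeq2 size factors, no or a stricter low-count filter, the DESeq2 and limma-voom tests, the compared groups alone, a replicate block and leaving out libraries. Versions were R 4.3.3, edgeR 4.0.16, limma 3.58.1, DESeq2 1.42.0, Python 3.11.15 and Biopython 1.88.

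The members and the gene lists were chosen with earlier results of these data known. By rule, the text names all members and up to 4 called genes of smallest p from each list. It also names the 5 genes most like a called member, and Kcnk1, Atf3 and Sprr1a. Not every member is given with values in every comparison. Other genes (such as Cacnb3, Cacna1s, Cacng1 and those called only by other tools) were named after their values were seen. Whether libraries are separate animals is not labelled, and p-values therefore reflect only the spread between these samples, which may be technical. In 136 pairs, 0 libraries held identical values. Coding stretches were read from GENCODE M39 transcripts and promoters from RefSeq. The results of some cell marker lists are not reported here.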

Additional observations from a re-analysis of the deposited data

Results flagged for a closer look

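In 3 of the 30 groups of libraries of a member that could be tested, a single library lay far from the rest of its group, with a gap large against the range of the group by Dixon's 95% criterion; chance alone gives about 1 in 20. Cacna2d1 in CCI_WT library 3 was 103 CPM, with the nearest library of the group at 148 CPM (gap over range 0.73). This library also held the least Atf3 of its group, 108 CPM. Cacna1e in Sham_KO library 4 was 3.19 CPM, with the nearest library at 5.49 CPM (gap over range 0.86). Cacna1a in CCI_WT library 4 was 16.5 CPM, with the nearest library at 14.7 CPM (gap over range 0.711). The causes were not tested.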

How the results depend on the processing

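In wild-type injury 2 members passed in the main analysis. The count was 4 without a low-count filter, 4 with the DESeq2 test and 4 with the compared groups alone, where Cacna2d2 and Cacnb4 joined. It ran from 0 to 4 with 1 library left out, and the cause was not tested. Calls among all genes moved too, from 562 higher and 171 lower of 23972 in the main analysis. They were 850 and 451 of 46200 without a filter and 754 and 374 of 18807 with DESeq2. With the compared groups alone they were 697 and 351 of 20269. With 1 library left out they ran from 346 and 77 of 23739 to 692 and 306 of 23774. Cacna2d1 and Cacna1e passed in all 8 alternatives that left out no single library. The mean genotype effect, with 0 members, gave 1 without a low-count filter (Cacna2d2) and 0 to 2 with 1 library left out. Without that filter it called 422 higher and 690 lower of 46200 genes. With 1 library left out it ran from 114 higher and 282 lower of 25676 to 419 higher and 576 lower of 23622. The other 4 comparisons kept 0 members throughout. Same-numbered libraries were little alike in their deviations from group means: 1 of 22 such pairs correlated above 0.1 (−0.013 to 0.118). Pairs with different numbers were not computed, so this does not settle whether the numbers pair samples. The replicate block left 2 members in wild-type injury and 0 in the other 5 comparisons.

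Signs turned only for values that passed in no setting. With libraries 1 and 2 of Sham_KO left out, genotype in sham turned for Cacna1b (−3.6e-06), Cacna1d (0.26), Cacna1e (−0.10), Cacna2d1 (−0.03) and Cacnb4 (−0.01), the interaction for Cacna1b (0.04) and Cacna2d1 (0.09), and the mean genotype effect for Cacna1d (0.10) and Cacna2d3 (0.01). With limma-voom the turned values were Cacna1d in KO-labelled injury (0.03), Cacna1c (0.02) and Cacna1h (0.01) in genotype after CCI, Cacna1d (0.14) and Cacnb4 (−0.04) in the interaction and Cacna1h in the mean genotype effect (0.04). Cacna2d3 turned in wild-type injury with the stricter filter (−0.0020) and the compared groups alone (−0.0006), and in the mean genotype effect with DESeq2 size factors (0.0036), the stricter filter (0.0013), the DESeq2 test (0.0036) and the block (0.02). Cacnb4 turned in the interaction with DESeq2 size factors (−1.4e-05), and Cacna1h in genotype in sham with the block (−0.01).

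With 1 library left out, ranges that crossed 0 were, in wild-type injury, Cacna1d −0.14 to 0.13 and Cacna2d3 −0.08 to 0.06; in KO-labelled injury, Cacna1d −0.24 to 0.24; in genotype in sham, Cacna1a −0.05 to 0.08, Cacna1d −0.25 to 0.09, Cacna1e −0.03 to 0.21 and Cacna1h −0.01 to 0.10. In genotype after CCI they were Cacna1b −0.01 to 0.08, Cacna1c −0.06 to 0.05, Cacna1d −0.29 to 0.19, Cacna1h −0.13 to 0.05, Cacna2d1 −0.04 to 0.19 and Cacna2d3 −0.0045 to 0.16. In the interaction they were Cacna1a −0.01 to 0.12, Cacna1d −0.23 to 0.24, Cacna1h −0.18 to 0.0036, Cacna2d2 −0.0039 to 0.45 and Cacnb4 −0.09 to 0.06, and in the mean genotype effect Cacna1d −0.17 to 0.07, Cacna1h −0.04 to 0.05 and Cacna2d3 −0.05 to 0.03.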
